A study of Homo sapiens with 9 samples.

Results

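The clustered protocadherin genes lie in 3 neighbouring groups, alpha, beta and gamma, on human chromosome 5. Members were all regions of 6 deposited ChIP-seq lists that overlapped hg19 chr5:140160000-140900000, and they numbered 307 of the 335291 regions in the 6 lists. The alpha cluster was taken as chr5:140160000-140395000, beta as chr5:140425000-140635000 and gamma as chr5:140705000-140900000. The interval was chosen by measured values of these data, the density of EZH2 peaks and H3K27me3 regions in windows of the genome, so its control numbers of both are a description and support nothing. Control EZH2 peaks numbered 73 in the interval, and shEZH2 EZH2 peaks 48. H3K27me3 regions numbered 93 in control and 69 in shEZH2, and H3K27ac regions 11 and 13.

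Clustered protocadherins are cell surface adhesion proteins of the cadherin family, best known from neurons, where each cell uses a few of the many isoforms and the resulting combination gives it an identity. In the alpha and gamma clusters each variable first exon has its own promoter and is spliced to constant exons shared by the cluster, whereas the beta genes are single-exon genes. EZH2 is the methyltransferase of Polycomb repressive complex 2. That complex trimethylates lysine 27 of histone H3, and the resulting H3K27me3 is typical of silenced genes, while H3K27ac, the acetylated form of the same residue, is typical of active promoters and enhancers.

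All libraries came from LNCaP, an established human prostate cancer cell line. The control groups carried the empty knockdown vector plko.1 and the shEZH2 groups a lentiviral short hairpin against EZH2, and fixation in 1% paraformaldehyde followed the infection by 2 to 3 days. Each of the 6 groups (EZH2, H3K27ac and H3K27me3, each in control and shEZH2) held 1 library, and the other 3 samples of the series, 2 of HA-tagged EZH2 and 1 EZH2 library whose label names R1881, were not analysed here. With 1 library per group there was no spread between replicates and no test: intervals below are 95% intervals of counting error only, and a difference between groups is a difference between 2 libraries. The labels' protocols name neither the number of hairpins nor a selection step, and the level of EZH2 itself was not measured in these files. The EZH2 antibody had the same catalogue and lot number in both groups. Libraries held 13331155 to 33289172 tags, and 1 tag was worth 0.750 normalised tags in the control EZH2 library and 0.689 in the shEZH2 one. Signal is given as normalised tags, which are a region's tags per 10000000 tags of its library as the authors computed them. Across the genome the EZH2 lists held 23060 peaks in control and 9493 in shEZH2.

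The members are copies of one another in part, and how reads that match several copies were handled is not given in the sources used here. No hg19 annotation was used, so no region is assigned to a gene, the genes are named in order only, and the marker genes of LNCaP were not analysed here. In the RefSeq table of GRCh38.p14 the order ran from ZMAT2 through the 15 alpha genes (PCDHA1 to PCDHA13, PCDHAC1 and PCDHAC2) and the 16 beta genes (PCDHB1 to PCDHB16) to SLC25A2 and TAF7, then through the 22 gamma genes (PCDHGA1 to PCDHGA12, PCDHGB1 to PCDHGB7 and PCDHGC3 to PCDHGC5) to DIAPH1. The table also held 6 pseudogenes, namely PCDHA14 in alpha, PCDHB17P, PCDHB18P and PCDHB19P in beta, and PCDHGB8P and PCDHGB9P in gamma.

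Promoters of 47 of the 53 genes were matched in the RefSeq promoter table of GRCh38.p14 (250 bases before to 50 after each gene start), and all 47 lay on the plus strand. They are shown because the chromatin pattern below repeats along the clusters, and the gene copies share a short stretch just before their starts. Whether the pattern follows the single genes was not tested. For each family, the run of 10 bases held by most of its promoters was found. The runs were picked as the commonest ones, and ties were settled in favour of runs holding CGCT. The family counts and the presence of CGCT in the runs are therefore a description. Each contained CGCT, the core of the conserved element known from protocadherin promoters, which is set in capitals. CGCT by itself was common, standing on either strand in 71.9% of all 27305 genes with a promoter in the table and in 12 of 13, 14 of 14 and 20 of 20 of the alpha, beta and gamma genes. The coordinates below are GRCh38.p14, plus strand. They cannot be laid over the hg19 positions of the peaks.

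In alpha the run TGATGTCGCT stood in 8 of 13 promoters, against 0.0439% of all genes on either strand.
PCDHA1 (chr5:140786082-140786125): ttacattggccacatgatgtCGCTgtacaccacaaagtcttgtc
PCDHA2 (chr5:140794777-140794820): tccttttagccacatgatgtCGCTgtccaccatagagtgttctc
PCDHA4 (chr5:140806975-140807018): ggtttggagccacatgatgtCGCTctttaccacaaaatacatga
PCDHA5 (chr5:140821538-140821581): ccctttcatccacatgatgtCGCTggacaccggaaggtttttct

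In beta the run GGTGGCGCTG stood in 12 of 14 promoters, against 0.341% of all genes.
PCDHB2 (chr5:141094540-141094583): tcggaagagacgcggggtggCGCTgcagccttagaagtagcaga
PCDHB3 (chr5:141100389-141100432): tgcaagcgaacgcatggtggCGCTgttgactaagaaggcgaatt
PCDHB4 (chr5:141121719-141121762): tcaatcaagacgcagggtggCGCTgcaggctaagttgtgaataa
PCDHB5 (chr5:141135175-141135218): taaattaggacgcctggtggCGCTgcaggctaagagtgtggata

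In gamma the run GCGCCGCTGT stood in 9 of 20 promoters, against 0.165% of all genes.
PCDHGA1 (chr5:141330399-141330442): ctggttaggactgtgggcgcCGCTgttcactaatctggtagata
PCDHGA7 (chr5:141382645-141382688): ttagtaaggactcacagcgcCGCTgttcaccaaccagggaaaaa
PCDHGA8 (chr5:141392564-141392607): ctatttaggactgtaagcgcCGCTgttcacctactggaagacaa
PCDHGA9 (chr5:141402710-141402753): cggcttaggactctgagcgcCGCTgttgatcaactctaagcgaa

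The matched promoters were poor in CpG dinucleotides for their length. The median number of CpGs in 300 bases was 7.00 in alpha, 7.50 in beta and 7.00 in gamma, against 16 over all genes in the table. Their median GC content was 37.3%, 40.8% and 42.0%, against 59.7%. Relative to base composition the CpG density was close to that of all promoters, with median observed over expected ratios of 0.593, 0.631 and 0.543 against 0.634.

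EZH2 peaks in control cells followed each other along all 3 clusters and were tallest in beta. The alpha cluster held 27 control peaks with a median of 13.5 normalised tags (7.5 to 31.5), beta 26 with a median of 21.0 (7.5 to 35.3) and gamma 20 with a median of 10.1 (7.5 to 18.8). At or above 20 tags were 4 alpha, 18 beta and 0 gamma peaks. No EZH2 peak of either list lay in the stretches between the clusters. The interval was set off from its surroundings: the nearest control EZH2 peak before it ended 89.1 kb from its border and the nearest after it began 160 kb away, and the nearest control H3K27me3 regions lay 430 kb before and 170 kb after it.

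**Figure D1:**
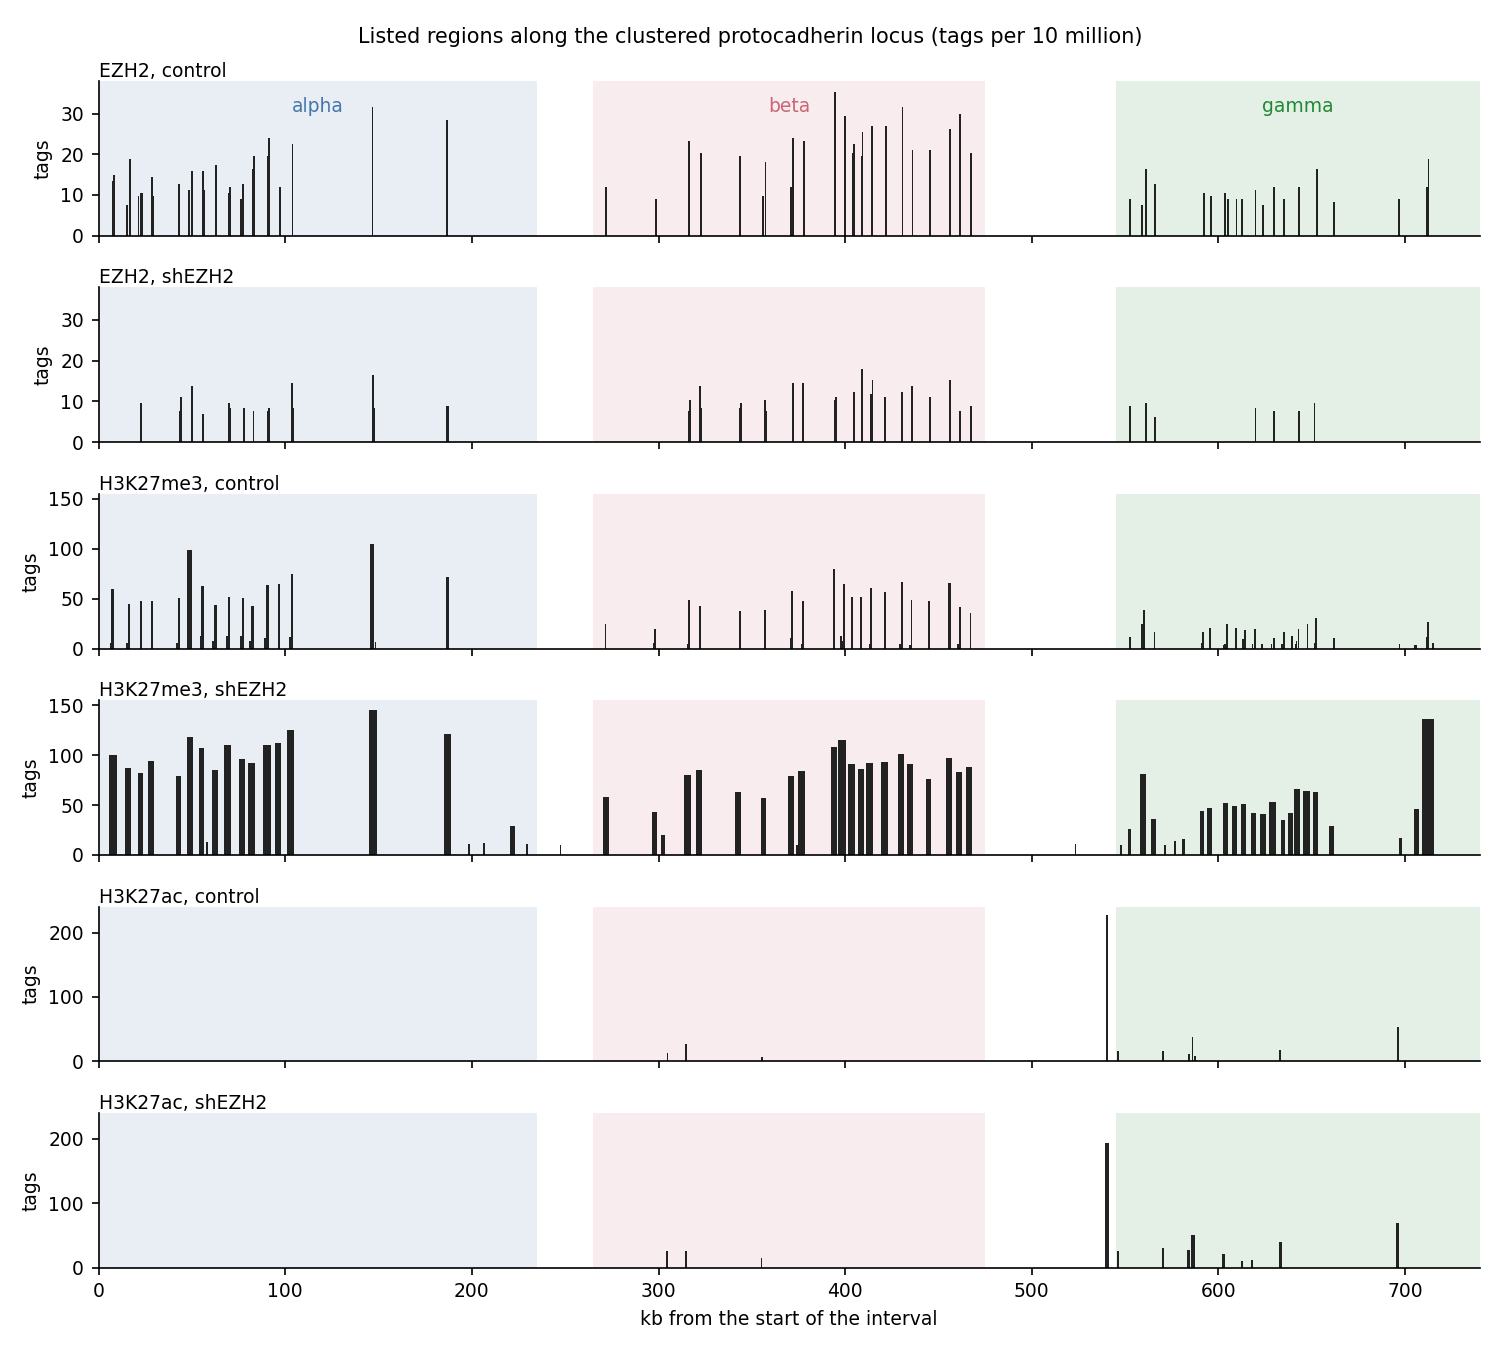
Listed regions of the 6 libraries along the interval. The x axis is the distance in kb from the start of the interval, bar height is normalised tags per 10000000, bars narrower than 1 kb are widened to be seen, and shading marks the clusters. EZH2 and H3K27me3 repeat in register along the 3 clusters, and H3K27ac is absent from alpha and tallest, at 227.1 tags in control and 193.5 in shEZH2, just before gamma.

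The 5 tallest control peaks of each cluster show where the signal stood. In beta they were chr5:140554170-140554352 with 35.3 normalised tags (47 tags, Poisson interval 25.9 to 46.9), chr5:140590211-140590393 with 31.5, chr5:140621145-140621327 with 30.0, chr5:140559284-140559466 with 29.3 and chr5:140573650-140573832 with 27. In alpha the tallest peaks stood at the far end of the cluster: chr5:140306212-140306394 had 31.5 (42 tags, 22.7 to 42.6) and chr5:140346368-140346550 had 28.5, followed by chr5:140250698-140250880 with 24.0, chr5:140263382-140263564 with 22.5 and chr5:140242608-140242790 with 19.5. A gap of 42.6 kb without a control peak, chr5:140263565-140306211, set the first 2 of these apart from the rest of the cluster. In gamma the tallest were chr5:140872036-140872218 with 18.8 (25 tags, 12.1 to 27.7), chr5:140720476-140720658 and chr5:140812188-140812370 with 16.5 each, chr5:140725360-140725542 with 12.8 and chr5:140789447-140789629 with 12. The tallest gamma peak, at 18.8, lay under the beta median of 21.0.

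In shEZH2 cells the listed peaks were fewer, and they held fewer tags than control peaks on the scale of all tags of a library, whereas scaling to the tags in listed EZH2 peaks, which multiplies shEZH2 values by 2.09, put the shEZH2 medians above the control ones (17.3, 23.0 and 17.3 in alpha, beta and gamma). That scaling sets the summed tags of both EZH2 lists equal, so by construction it cannot show a loss common to all peaks. The alpha cluster held 17 peaks with a median of 8.27 tags (6.89 to 16.5), beta 24 with a median of 11.0 (7.58 to 17.9) and gamma 7 with a median of 8.27 (6.2 to 9.65). These are tags per peak window, of 183 bp in control and 151 bp in shEZH2. Per kb, the control and shEZH2 medians were 73.8 and 54.8 in alpha and 115 and 72.8 in beta. In gamma they were nearly equal, at 55.3 and 54.8. On the scale of all tags, no shEZH2 peak reached 20 tags in any cluster. The shEZH2 number over the control number was 0.630 in alpha (0.322 to 1.2), 0.923 in beta (0.507 to 1.67) and 0.350 in gamma (0.125 to 0.862), against 0.412 over the genome. The call thresholds differed, at 36.9 tags per kb in control and 45.6 in shEZH2, so the lowest control peaks lay under the shEZH2 threshold. Control peaks below 10 tags numbered 4 of 27 in alpha, 3 of 26 in beta and 10 of 20 in gamma. With peaks of at least 15 tags, the numbers were 12 and 1 in alpha, 21 and 3 in beta, and 3 and 0 in gamma. Over the genome they were 5531 and 2030. With shEZH2 tags scaled to those in listed peaks, the cluster numbers were 12 and 16, 21 and 24, and 3 and 6. Over the genome they were then 5531 and 8482. The numbers above a given height thus rest on the scaling, in the clusters and over the genome.

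**Figure D2:**
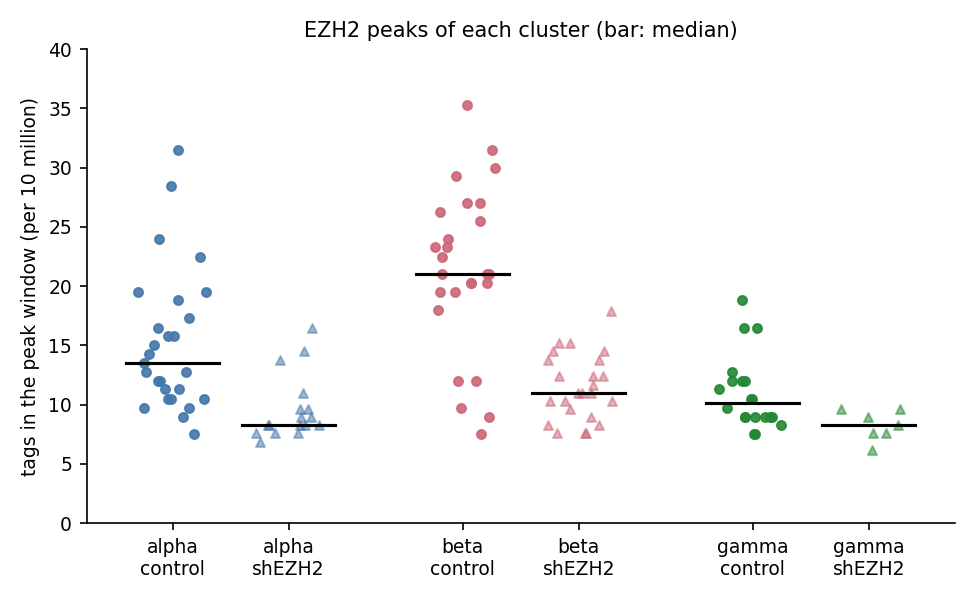
Normalised tags (per 10000000) in every EZH2 peak, by cluster and group. Circles are control peaks, triangles shEZH2 peaks and bars medians. The control medians of 13.5, 21.0 and 10.1 in alpha, beta and gamma stand above the shEZH2 medians of 8.27, 11.0 and 8.27 on this scale, which divides by all tags of a library, and below them when tags are scaled to those in listed EZH2 peaks. The latter scaling sets the summed tags of both EZH2 lists equal by construction.

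The tallest shEZH2 peaks were chr5:140568474-140568624 with 17.9 normalised tags (26 tags, 11.7 to 26.2) in beta, chr5:140306294-140306444 with 16.5 in alpha and, in gamma, chr5:140720639-140720789 and chr5:140810981-140811131 with 9.65 each. Next in beta were chr5:140574138-140574288 and chr5:140615766-140615916 with 15.2 each, and chr5:140531748-140531898 and chr5:140537092-140537242 with 14.5 each. In alpha they were chr5:140263315-140263465 with 14.5, chr5:140209313-140209463 with 13.8, chr5:140203391-140203541 with 11.0 and chr5:140182129-140182279 with 9.65. In gamma they were chr5:140712289-140712439 with 8.96, chr5:140779322-140779472 with 8.27 and chr5:140789400-140789550 with 7.58.

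Control peaks with a shEZH2 peak at the same place were found in each cluster. An overlap of at least 1 bp with a shEZH2 peak was found for 12 of 27 alpha (44.4%, exact binomial interval 25.5 to 64.7), 12 of 26 beta (46.2%, 26.6 to 66.6) and 5 of 20 gamma control peaks (25.0%, 8.66 to 49.1), against 23.1% of all control peaks. A shEZH2 peak within 1 kb stood beside 16 of 27, 22 of 26 and 6 of 20, against 33.9%. Among control peaks on H3K27me3 elsewhere the shares were 31.7% for overlap and 47.7% within 1 kb. In beta, allowing 1 kb raised the number from 12 to 22, and shEZH2 peaks often stood beside the control peak. The median distance from a beta control peak centre to the nearest shEZH2 centre was 216 bp, and in gamma it was 6076 bp. At the tallest beta peak, chr5:140554170-140554352, the shEZH2 list held a peak on either side, at chr5:140553966-140554116 (10.3 tags) and chr5:140554395-140554545 (11.0 tags), and none across it. Control peaks were called in windows of 183 bp and shEZH2 peaks in windows of 151 bp. Of the 48 shEZH2 peaks, 47 had a control peak within 1 kb (97.9%, 88.9 to 99.9). The share was 80.3% over all shEZH2 peaks and 84.8% over those on H3K27me3 elsewhere. Because the interval was chosen for dense EZH2 peaks, which favours a control peak nearby, its share is a description.

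The share called again followed the height of the control peak, in the interval and elsewhere. Among control peaks of 20 tags or more, 21 of 22 had a shEZH2 peak within 1 kb, and 92.1% of the 2521 such peaks on H3K27me3 outside the interval did. Between 15 and 20 tags it was 9 of 14 against 64.8%, between 10 and 15 tags 12 of 20 (60.0%, 36.1 to 80.9) against 36.1%, and below 10 tags 2 of 17 against 12.6%. The only control peak of at least 20 tags with no shEZH2 peak within 1 kb was chr5:140559284-140559466 in beta, with 29.3 tags and 4737 bp to the nearest one. Beta held 18 of the 22 control peaks of 20 tags or more.

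At the 29 peaks that overlapped, shEZH2 tags per kb were lower than control in 26 when scaled to all tags of a library and in 6 when scaled to the tags in listed EZH2 peaks. The median log2 of shEZH2 over control was -0.57 in alpha (12 peaks, -1.09 to -0.26), -0.79 in beta (12, -0.97 to -0.51) and -0.39 in gamma (5, -0.77 to -0.17), against -0.39 over the 5330 overlapping peaks of the genome and -0.63 over the 2931 on H3K27me3 elsewhere. Only peaks also called in shEZH2 enter these medians, so the lower a control peak, the less far its ratio could fall. Median control tags at the overlapping peaks were highest in beta and lowest in gamma. The order of the clusters, and their comparison with the other peaks, was not tested apart from control height. The scaling to listed peaks moved every ratio up by 1.06 and turned the medians to 0.50, 0.27 and 0.68, so the direction rests on the scaling. By construction that scaling takes out any loss common to all listed peaks. A positive value on it is relative to the total of listed peaks. The lowest ratios were at chr5:140621145-140621327 in beta, with 30.0 tags in control and 7.58 in shEZH2 (log2 -1.71, -2.82 to -0.72), chr5:140346368-140346550 in alpha, with 28.5 and 8.96 (-1.39, -2.43 to -0.45), and chr5:140476004-140476186 in beta, with 23.3 and 7.58 (-1.34, -2.48 to -0.31). The highest were at chr5:140182250-140182432 in alpha, with 10.5 and 9.65 (0.16, -1.02 to 1.33), chr5:140568425-140568607 in beta, with 19.5 and 17.9 (0.15, -0.69 to 1.00), and chr5:140209413-140209595 in alpha, with 15.8 and 13.8 (0.08, -0.88 to 1.04). The intervals of the 3 highest held 0 and those of the 3 lowest did not, and with scaling to listed peaks this turned, with lower bounds of 0.04, 0.37 and 0.18 for the 3 highest and upper bounds of 0.34, 0.61 and 0.75 for the 3 lowest, in the order named. As the extremes of 29 they are a description.

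H3K27me3 formed a row of separate blocks, and 52 of the 56 with a control H3K27me3 region held a control EZH2 peak. A block was the union of overlapping H3K27me3 regions of the 2 lists. The interval held 69 blocks, of which 56 had a control region: 16 in alpha, 20 in beta and 20 in gamma. For comparison of numbers only, alpha has 15 genes and 1 pseudogene, beta 16 and 3, and gamma 22 and 2. Blocks with control H3K27me3 followed each other at a median of 6.71 kb from centre to centre in alpha (4.92 to 44.2), 8.01 kb in beta (4.24 to 26.0) and 5.31 kb in gamma (3.44 to 36.5).

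EZH2 and H3K27me3 coincided. A control H3K27me3 region overlapped 26 of 27 alpha, 25 of 26 beta and 19 of 20 gamma control EZH2 peaks, where 44.2% of all control EZH2 peaks lay on H3K27me3, and all 48 shEZH2 peaks lay on shEZH2 H3K27me3, against 67.8%. The interval was chosen for its EZH2 and H3K27me3, so these shares are a description. All 16 alpha and all 20 beta blocks with control H3K27me3 held a control EZH2 peak, and 16 of 20 gamma blocks did. The 4 gamma blocks without one had 4.51 to 24.6 control H3K27me3 tags, where the 16 with one had 9.32 to 63.7.

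The control H3K27me3 region of most tags in a block is called its main region, and EZH2 stood near its centre. Main regions were 1252 bp wide in alpha at the median (981 to 2443), 982 bp in beta (656 to 1297) and 580 bp in gamma (151 to 1075), with median tags of 56.0, 48.5 and 17.7. The centre of 63 of 72 control EZH2 peaks in blocks fell inside the main region, at a median distance of 168 bp from its centre, and that of 46 of 48 shEZH2 peaks did, at 189 bp. Beside the main region many blocks had smaller control H3K27me3 regions, 37 in all, with a median of 5.41 tags.

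The smaller regions lay on 1 side. Of the 37, 34 had lower coordinates than the main region, with 10 of 11 in alpha, 10 of 10 in beta and 14 of 16 in gamma, at a median gap of 682 bp (268 to 1525). Among all 37, 4 gamma regions held over 50% of the tags of the main region, 3 at lower coordinates and 1, with as many tags, at higher ones. The choice of the main region is weakest or arbitrary there. Among the other 33 smaller regions 31 had lower coordinates. All 47 matched protocadherin promoters lie on the plus strand in GRCh38.p14, so that lower coordinates are the upstream side of these genes there.

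**Figure D3:**
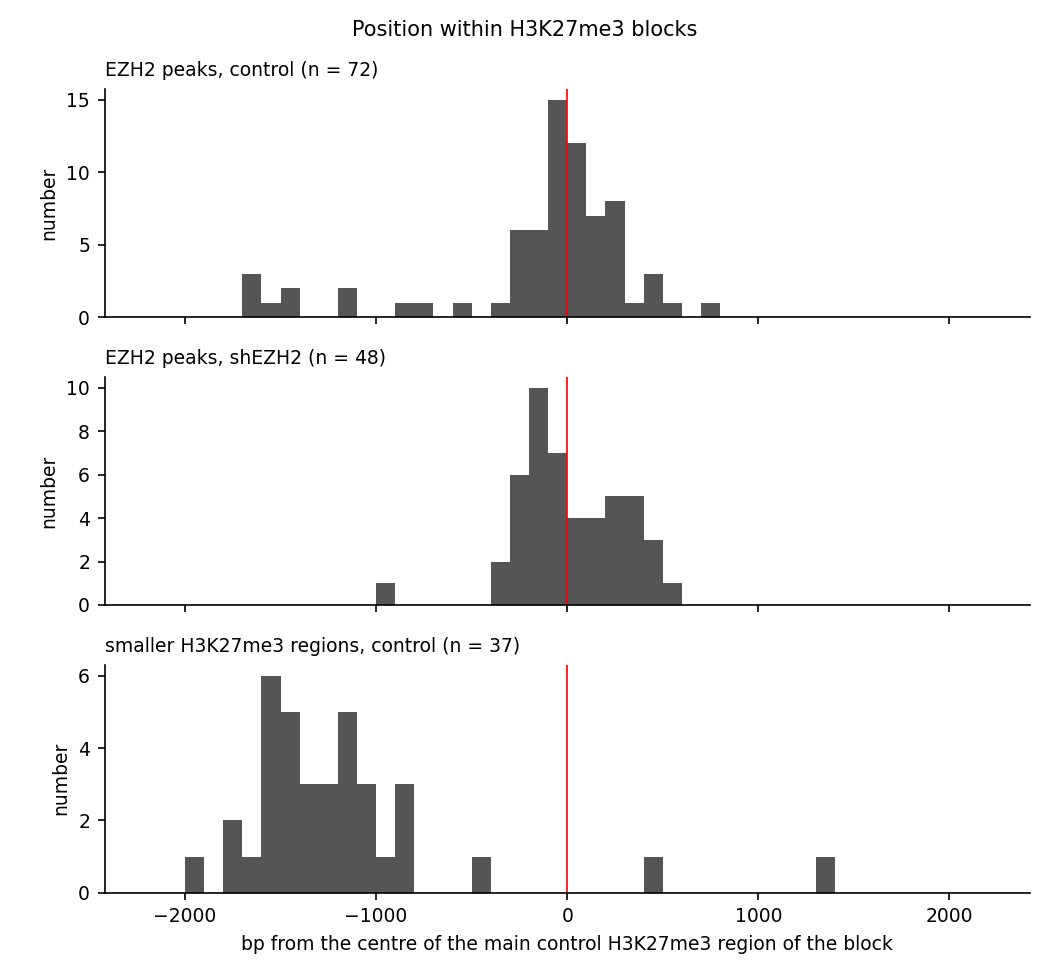
Distance in bp from the centre of the main control H3K27me3 region of a block to the centres of control EZH2 peaks, shEZH2 EZH2 peaks and smaller control H3K27me3 regions. Bars count peaks or regions in steps of 100 bp, and negative values are lower coordinates. EZH2 centres gather around the main centre in both groups, and 34 of 37 smaller regions lie on the negative side.

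The H3K27me3 regions of most tags stood in alpha and beta in control. In alpha they were chr5:140305641-140307604 with 104.5 normalised tags, chr5:140207576-140210018 with 99.1 and chr5:140262923-140264218 with 74.8. In beta they were chr5:140553612-140554797 with 79.3, chr5:140589754-140590734 with 66.4 and chr5:140615271-140616427 with 65.5. Gamma regions were lower, led by chr5:140719787-140720861 with 38.8, chr5:140811551-140812503 with 30.9 and chr5:140871715-140872408 with 26.7. The tallest alpha and beta regions each contained the tallest EZH2 peak of its cluster.

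In shEZH2 every control H3K27me3 region of the interval was called again, 93 of 93 against 94.1% of all control regions. The shEZH2 regions were wider, with medians of 3203, 3232 and 2686 bp in alpha, beta and gamma, and were called in windows of 1000 bp with a lower density of tags per window (9.53 per kb, against 26.0 per kb in the 150 bp windows of control). Tags per kb and tags per region therefore moved in opposite directions: the median log2 of shEZH2 over control over 56 regions was -0.76 per kb (-0.82 to -0.64) and 0.77 per region (0.70 to 0.83). A shEZH2 region that encloses its control regions covers more sequence, so fewer tags in it cannot come from its width. Fewer tags were found in 0 of 54 such regions, against 0.823% of 35231 in the genome. The shEZH2 regions were 2.84 times as wide as the control ones at the median, and 6.63 times in the genome. Finding none with fewer tags therefore says nothing about the level of H3K27me3. In shEZH2 the regions of most tags were chr5:140304948-140309158 with 144.8, chr5:140261159-140264508 with 125.4 and chr5:140345115-140348674 with 121.6 in alpha. In beta they were chr5:140556104-140560659 with 115.5, chr5:140552584-140555694 with 108.2 and chr5:140588096-140591255 with 101.4. In gamma they were chr5:140868943-140875624 with 136.4, chr5:140718103-140721329 with 80.8 and chr5:140800322-140803602 with 65.9. Of the 69 shEZH2 regions, 13 were called in shEZH2 alone, against 62713 of 99251 in the genome. All 13 had a density (9.46 to 13.7 tags per kb) under that of the least dense control region listed in the interval (22.4 per kb).

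Blocks with more H3K27me3 in control had more in shEZH2, and EZH2 varied with H3K27me3 across blocks to a different degree in each cluster, with no test of that difference. Across the 52 blocks with a control EZH2 peak, control and shEZH2 H3K27me3 tags had a Pearson r of 0.90 and a Spearman rho of 0.87. Control EZH2 and control H3K27me3 tags had r = 0.64 and rho = 0.73 over these blocks, with r = 0.79 and rho = 0.71 over the 16 gamma, 0.55 and 0.65 over the 20 beta and 0.21 and 0.20 over the 16 alpha blocks. The blocks share 1 library per target, and wider blocks hold more tags of both, so the values are given as a description.

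**Figure D4:**
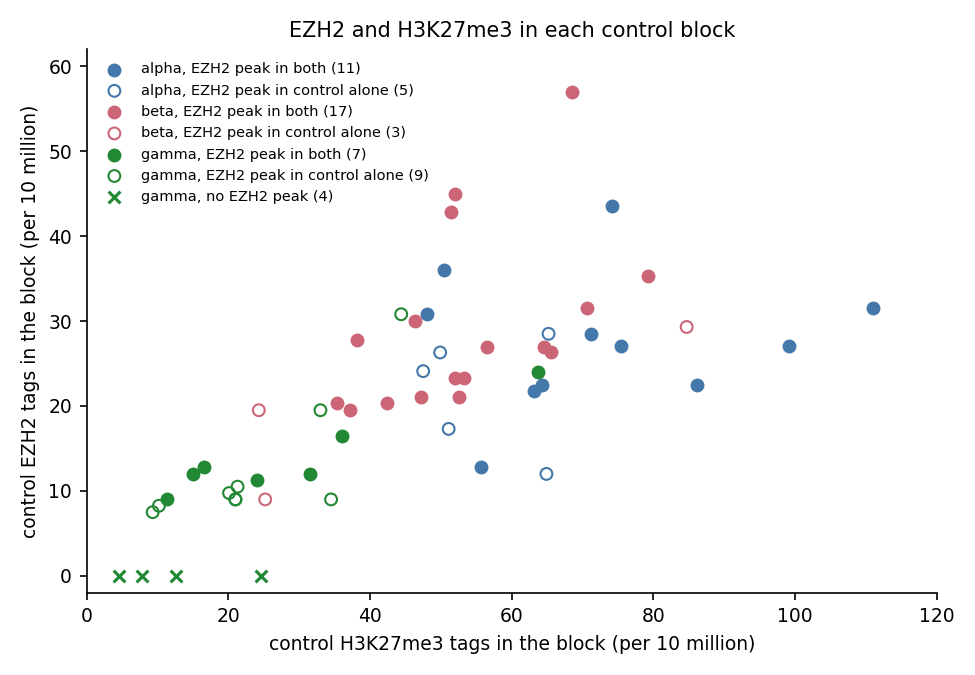
Control EZH2 tags against control H3K27me3 tags (both per 10000000) in each H3K27me3 block with a control region. Filled circles are blocks with EZH2 peaks in both groups, open circles blocks with an EZH2 peak in control alone and crosses blocks with none. Most gamma blocks lie at lower values of both than most alpha and beta blocks, with exceptions such as those at 30.8 EZH2 tags and at 63.7 H3K27me3 tags, and the 4 blocks without EZH2 are all in gamma.

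Counted by block, 35 of the 52 blocks with a control EZH2 peak also held a shEZH2 peak. These were 11 of 16 in alpha (68.8%, 41.3 to 89.0), 17 of 20 in beta (85.0%, 62.1 to 96.8) and 7 of 16 in gamma (43.8%, 19.8 to 70.1), against 39.5% of the 9582 such blocks of the genome. The median block held 26.7, 26.6 and 10.9 control EZH2 tags in alpha, beta and gamma, against 12 in the genome. No block held a shEZH2 EZH2 peak without a control one. In an interval chosen for dense EZH2 peaks this is a description, and the share over the genome is not given here. Within the 35 blocks, the sum of EZH2 tags over listed peaks was lower in shEZH2 in 32 on the scale of all tags of a library and in 13 when scaled to the tags in listed peaks. The number of shEZH2 peaks was higher than that of control peaks in 9 of the 52 blocks.

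**Figure D5:**
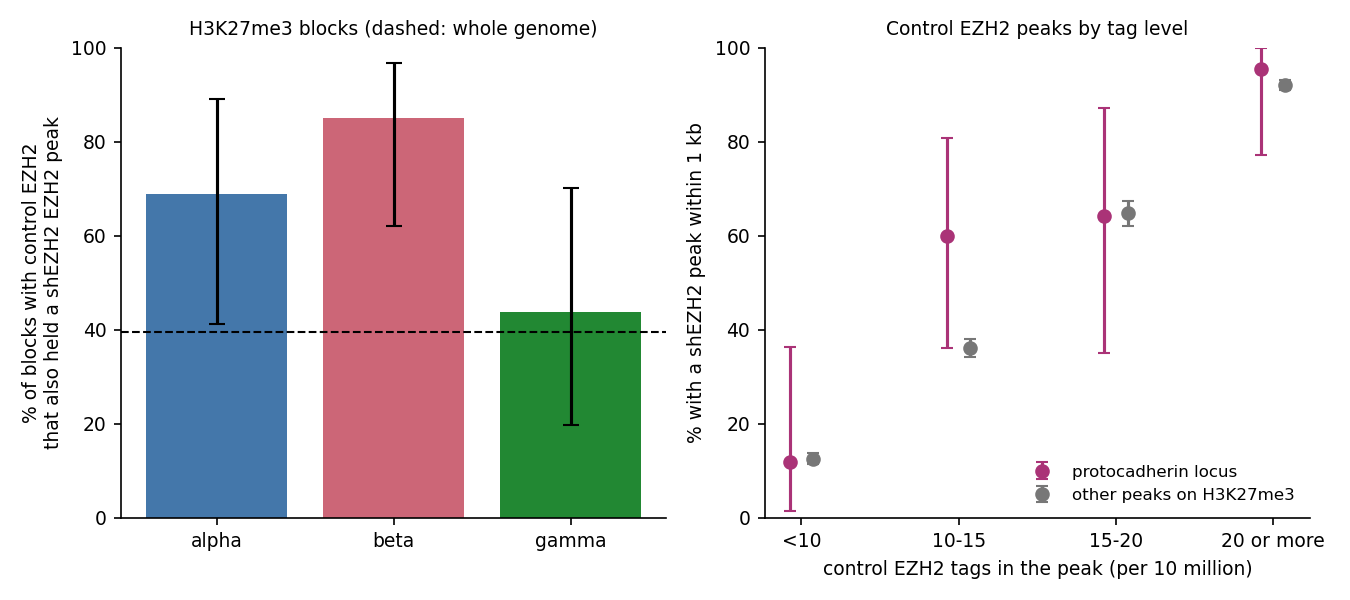
Left, percent of H3K27me3 blocks with a control EZH2 peak that also held a shEZH2 EZH2 peak, with exact binomial 95% intervals. The dashed line is the 39.5% of all such blocks. Right, percent of control EZH2 peaks with a shEZH2 peak within 1 kb, by normalised tags, in the interval and at other peaks on H3K27me3. Beta stands highest at 85.0%, gamma at 43.8% is near the line, and in each class of tags the error bars of the interval and of the other peaks overlap.

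Blocks with EZH2 in control alone included several neighbours. In gamma, 5 successive blocks from chr5:140749957 to chr5:140774921 held none in shEZH2, and they lie in the longest gap between 2 neighbouring shEZH2 peaks of gamma, chr5:140725648-140779321 (53.7 kb). Their control EZH2 tags ranged from 9 to 19.5. At the end of gamma, the block chr5:140868943-140875624 held 2 control EZH2 peaks of 18.8 and 12 tags and no shEZH2 peak. It had the most shEZH2 H3K27me3 tags of the cluster (136.4). It was also the widest gamma block, at 6682 bp against a median of 2794 bp, so this total is not a density. In beta the first 2 blocks had none in shEZH2, with 24.3 and 25.2 control H3K27me3 tags, and the third was the tall block chr5:140556104-140560659 named above. In alpha 5 blocks had none, 3 of them among the first 4. The longest stretches without a control EZH2 peak, counted to the borders of the clusters, were chr5:140346551-140395000 (48.5 kb) at the end of alpha, chr5:140431771-140457895 (26.1 kb) inside beta and chr5:140821502-140856160 (34.7 kb) inside gamma. In shEZH2 they were chr5:140346827-140395000 (48.2 kb) at the end of alpha, chr5:140425000-140476015 (51.0 kb) at the start of beta and chr5:140811132-140900000 (88.9 kb) at the end of gamma.

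H3K27ac regions were few in the clusters, and in control none touched a control H3K27me3 region, although 2 of the beta regions touched blocks that the wider shEZH2 H3K27me3 regions extended. The alpha cluster held 0 H3K27ac regions in both groups. In control, beta held chr5:140464306-140464615 with 13.8 normalised tags, chr5:140474128-140474670 with 27.5 and chr5:140514915-140515121 with 6.88. None of these 3 touched a control H3K27me3 region or EZH2 peak, and the nearest H3K27me3 lay 326 bp from the second. Gamma held 7 control regions: chr5:140705847-140706135 with 15.5, chr5:140729708-140730004 with 16.1, chr5:140743934-140744133 with 11.5, chr5:140745565-140746218 with 37.8, chr5:140746818-140747016 with 8.03, chr5:140792655-140793124 with 18.4 and chr5:140855500-140856458 with 52.8. None touched control H3K27me3. The last of them held the only control EZH2 peak of the interval on H3K27ac, chr5:140856161-140856343 with 9.0 tags, and lay 22 bp from a control H3K27me3 region. Over the genome 34.4% of control EZH2 peaks lay on H3K27ac, against 1 of 73 here (1.37%, 0.0347 to 7.40), and among control peaks on H3K27me3 elsewhere the share was 2.95%.

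Between beta and gamma stood the tallest H3K27ac region of the interval, chr5:140699771-140700965, with 227.1 normalised tags in control. It was 10995 bp from the nearest control H3K27me3. In shEZH2 the wider region chr5:140699306-140701311 enclosed it with 193.5 tags. Outside the interval, the 100 kb on either side held 5 control H3K27ac regions before alpha, with up to 255.8 tags, and 7 after gamma, with up to 256.3, and no H3K27me3 region of either list.

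In shEZH2 every control H3K27ac region of the interval was called again, 11 of 11 against 97.0% of all control regions. Beta held 3 shEZH2 regions: chr5:140464049-140465302 with 26.2 tags, chr5:140473981-140474981 with 25.7 and chr5:140514633-140515633 with 15.3. Gamma held 9. Of these, 6 covered control regions, at chr5:140705484-140706736 with 25.7, chr5:140729514-140730764 with 31.1, chr5:140743328-140744903 with 28.4, chr5:140745114-140747227 with 50.5, chr5:140792530-140794041 with 40.6 and chr5:140854958-140856866 with 69.9. As with H3K27me3, the wider shEZH2 windows moved the median of the 10 shared regions down per kb (log2 -1.11, -1.39 to -0.59) and up per region (0.83, -0.10 to 1.15), so no direction was read. A shEZH2 region that enclosed its control region and held fewer tags was found in 2 of 10 places, chr5:140474128-140474670 in beta and chr5:140699771-140700965 between the clusters, against 14.4% of 34059 in the genome.

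Of the 13 shEZH2 H3K27ac regions of the interval, 3 were listed in shEZH2 alone, against 24273 of 59233 in the genome. These were the other 3 gamma regions, and they lay on H3K27me3 of both groups. They were chr5:140762062-140763321 with 21.2 tags, chr5:140771952-140772952 with 10.4 and chr5:140777351-140778351 with 12.6. The first 2 each overlapped a control EZH2 peak, chr5:140762964-140763146 (10.5 tags) and chr5:140772337-140772519 (9.0 tags), that had no shEZH2 peak within 1 kb. Their densities of 10.4 to 16.8 tags per kb were all under that of the least dense control H3K27ac region listed in the interval (33.2 per kb). The windows needed 34.4 tags per kb for a control call and 9.47 for a shEZH2 call. The settings of the calls and the groups cannot be told apart here. Of the 9 shEZH2 regions in gamma, 5 touched shEZH2 H3K27me3, and in beta 2 of 3 did, against 0 of 10 in control, where the regions of both marks were narrower.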

How the data were processed

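ChIP-seq of EZH2, H3K27ac and H3K27me3 in LNCaP cells was analysed from 6 peak lists, 1 per group, grouped by the samples' titles. The submitters' processing notes name BWA 0.6.1, HOMER 4.1 and the build hg19. Each library was called by itself, per the file headers. EZH2 calls used fixed windows, a false discovery rate of 0.001 and at least 4.0-fold more tags than the local 10 kb. Control histone lists used 150 bp windows, and shEZH2 lists 1000 bp windows at a Poisson threshold of 0.001. The deposited signal is tags per region scaled to 10000000, the deposited score ranked peaks within a list, and the deposited ratio of fold over local background served only as a filter of the authors. The deposited clonal ratio, focus fraction and local p-value support no result here.

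Overlap meant at least 1 bp and matched bedtools 2.31.1, and the code was tested on simulated lists. Blocks were unions of overlapping H3K27me3 regions of both lists. Peaks on H3K27me3 elsewhere were those outside the interval, unplaced contigs and 2 Mb around the longest empty stretch of each chromosome. The genome share of blocks was over all blocks with a control EZH2 peak, with no such exclusion. Shares have exact Clopper-Pearson intervals, ratios of numbers exact binomial ones, medians order-statistic ones and tags exact Poisson ones, all at 95% and for counting error only. Tags came out within 0.0642 of whole tags. No test was run. Python 3.11.15, numpy 2.4.6, pandas 2.3.3 and scipy 1.17.1 were used.

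Named regions were, per cluster, the 5 tallest EZH2 peaks per list, the 3 H3K27me3 regions of most tags per list, the H3K27ac regions and the longest stretch without EZH2, and the 3 highest and 3 lowest EZH2 ratios. Regions named beyond these, the blocks, the classes of tags, the side of the smaller regions, the enclosed regions and the promoter runs were chosen after values were seen. The members and lists were chosen with earlier results of these data known.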

Additional observations from a re-analysis of the deposited data

How the results depend on the processing

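Of 68 alternative values for 29 results, 43 stayed within the counting interval of the value reported or within 1.5 times a number, 20 moved and 5 changed sign, and the cause was not tested except where the construction shows it. The ratio of shEZH2 to control EZH2 peak numbers fell to 0.174 in alpha and 0 in gamma with peaks of at least 10 tags, and to 0.0833, 0.143 and 0 in alpha, beta and gamma with at least 15, while lists of equal length gave 0.875 in gamma. Over the genome the ratio was 0.397 at 10 tags, 0.367 at 15 and, by construction, 1.00 with lists of equal length. The minimums of 10 and 15 tags are on the scale of all tags: with tags scaled to those in listed peaks, added after the data were seen, the ratios in alpha, beta and gamma were 0.739, 1.04 and 0.700 at 10 tags and 1.33, 1.14 and 2.00 at 15. Over the genome the scaled ratios were 0.817 and 1.53. The percentage of control EZH2 peaks called again was 18.5 in alpha with 50% of the peak covered and 17.4 in the upper 50% by score, 84.6 in beta within 1 kb, and 50 in gamma with lists of equal length. At shared EZH2 peaks, tags per window gave a median log2 of -1.07 in beta, and scaling to tags in listed peaks gave 0.50, 0.27 and 0.68 in alpha, beta and gamma, which is the added shift of 1.06. Tags per region turned H3K27ac to 0.83 and H3K27me3 to 0.77, since shEZH2 regions are wider. In the upper 50% by score, H3K27me3 regions numbered 16 and 18 in control beta and gamma and 10 and 15 in shEZH2 beta and gamma, and H3K27ac regions 4 in control gamma. At least 10 tags left 19 control H3K27me3 regions in gamma and a spacing of 11208 bp between its EZH2 peaks. The block shares, also added then, stayed within their intervals when only control peaks of at least 10 tags were used. No paired analysis was possible because each group held 1 library, and no library could be left out for the same reason. A peak of 7.5 normalised tags rests on few tags, so low gamma peaks are the least certain.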
